A study of Homo sapiens with 12 samples.

Results

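The comparison described here asks how HL-60 cells kept in the drug vehicle alone differed after 120 h in culture from the same cells at 6 h. HL-60 is an established human promyelocytic leukaemia line, listed as wild type. The members are the 4 DMSO samples of 6 h and 120 h, 2 at each time, of 12 samples in the series, chosen by treatment and time in the labels and not by any measured value. Wells were seeded at 100000 cells per mL and given DMSO, the solvent of the drug, or decitabine at 100 nM at 0, 24 and 48 h, and RNA was taken at 6, 72 and 120 h. At the 6 h harvest the decitabine wells had therefore had only the dose at 0 h, and at 72 h and 120 h all doses. Decitabine, a nucleoside drug, is incorporated during replication and depletes DNA methyltransferases. Duplicates were wells of a single line, with no statement that they were grown apart, so a p-value here measures only how far these wells differ, which may be technical. The amount of DMSO, the medium and any change of medium are not given.

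Culture over several days can alter what cells draw from their medium. Uptake and sterol levels were not part of these data, and their part in the RNA levels below was not tested. Cholesterol and unsaturated fatty acids are made in the cell or taken up from serum lipoproteins. Sterol regulatory element-binding proteins, encoded by SREBF1 and SREBF2, are held in the endoplasmic reticulum by INSIG proteins while sterols are plentiful, and when sterols run low they move to the nucleus and switch on the genes of sterol synthesis. The liver X receptors do the converse job: they sense oxysterols and switch on exporters such as ABCA1, and also SREBF1. HL-60 cells are widely used because high concentrations of DMSO drive them to neutrophil-like cells, so granule and neutrophil genes show whether a vehicle culture has differentiated.

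The deposited table held normalised counts for 60240 genes, and the 16152 that reached 10 in 2 or more libraries were tested. The estimated depth of the 4 members was 14427331 and 19760506 counts at 6 h and 17993753 and 18617878 at 120 h. The DMSO 72 h group enters with 1 library of 25712235 counts, since its other library was not analysed here. Which library a value belongs to rests on reading the table's heading as starting at the symbol field: the median absolute log2 difference averaged 0.298 within groups and 0.439 between groups in this reading, against 0.429 and 0.426 in the other. The decitabine 72 h pair lay farthest apart of all pairs within a group, at 0.59. Promyelocytic genes checked the label. Myeloperoxidase (MPO), the chief enzyme of primary granules, was at 135571 and 115397 at 6 h and 178349 and 122740 at 120 h. Of other cell types, CD3E, a T cell marker, and the haemoglobin gene HBB were at 0 in all 4 members, while the 20 lymphoid genes summed to 95.4 to 132 in the 4 members. Lists of other lineages were not silent. The 24 erythroid and megakaryocyte genes summed to 8574 to 9604 and the 25 monocyte and macrophage genes to 10989 to 13504. For the 18 eosinophil, basophil and mast cell genes the sums were 14785 to 22984. Most of each sum was 1 gene, PRG2, whose values are given below. Of this list's 16 tested genes, 5 were under 10 in all 4 of these libraries.

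No gene of DMSO cells passed the test between 6 h and 120 h, and most values differed little, although genes of sterol synthesis lay together above their 6 h level. With limma on log2(value + 1), 0 of 16152 genes were called at a Benjamini-Hochberg adjusted p under 0.05, and the smallest adjusted p was 0.366. At an unadjusted p under 0.05 there were 865 genes (5.36%), 479 higher (2.97%) and 386 lower (2.39%). That number depended on the fit. It was 806 of 16152 after quantile normalisation but 1831 of 16152 with sample weights and 1666 of 14051 with only the 4 DMSO libraries. Without both decitabine 72 h libraries, a fit chosen after seeing the data, it was 2013 of 15719. Other fits called 0 to 9 genes higher and 0 to 3 lower. The most were called when 1 of the 2 decitabine 72 h libraries was left out, and 0 when both were. The 4 pairs of a 120 h with a 6 h library had median absolute log2 differences of 0.28 to 0.289, against 0.199 between the 6 h duplicates and 0.261 between the 120 h duplicates. In decitabine the 4 pairs across the same times differed by 0.555 to 0.589, and 3220 genes (19.9%) were called between them.

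Because nothing was called, gene groups are described below by their libraries. A gene is counted as higher when both 120 h libraries lie above both 6 h libraries, which held for 3291 of all genes tested (20.4%), and as lower when both lie below, which held for 3768 (23.3%). Such a count is a description and not a test. At least 2-fold and without overlap, 470 genes (2.91%) were higher and 301 (1.86%) lower. The single DMSO 72 h library was compared with the means of the 2 libraries at 6 h and at 120 h. Of the genes counted as higher, it lay between these means for 48.3% and at or beyond the 120 h mean for 25.9%. It lay at the 6 h mean or on its far side for 25.8%. Of those counted as lower, these shares were 52.4%, 31.1% and 16.5%. Over all genes tested the 72 h library lay above both 6 h libraries for 32.4% and below both for 38.4%.

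**Figure D1:**
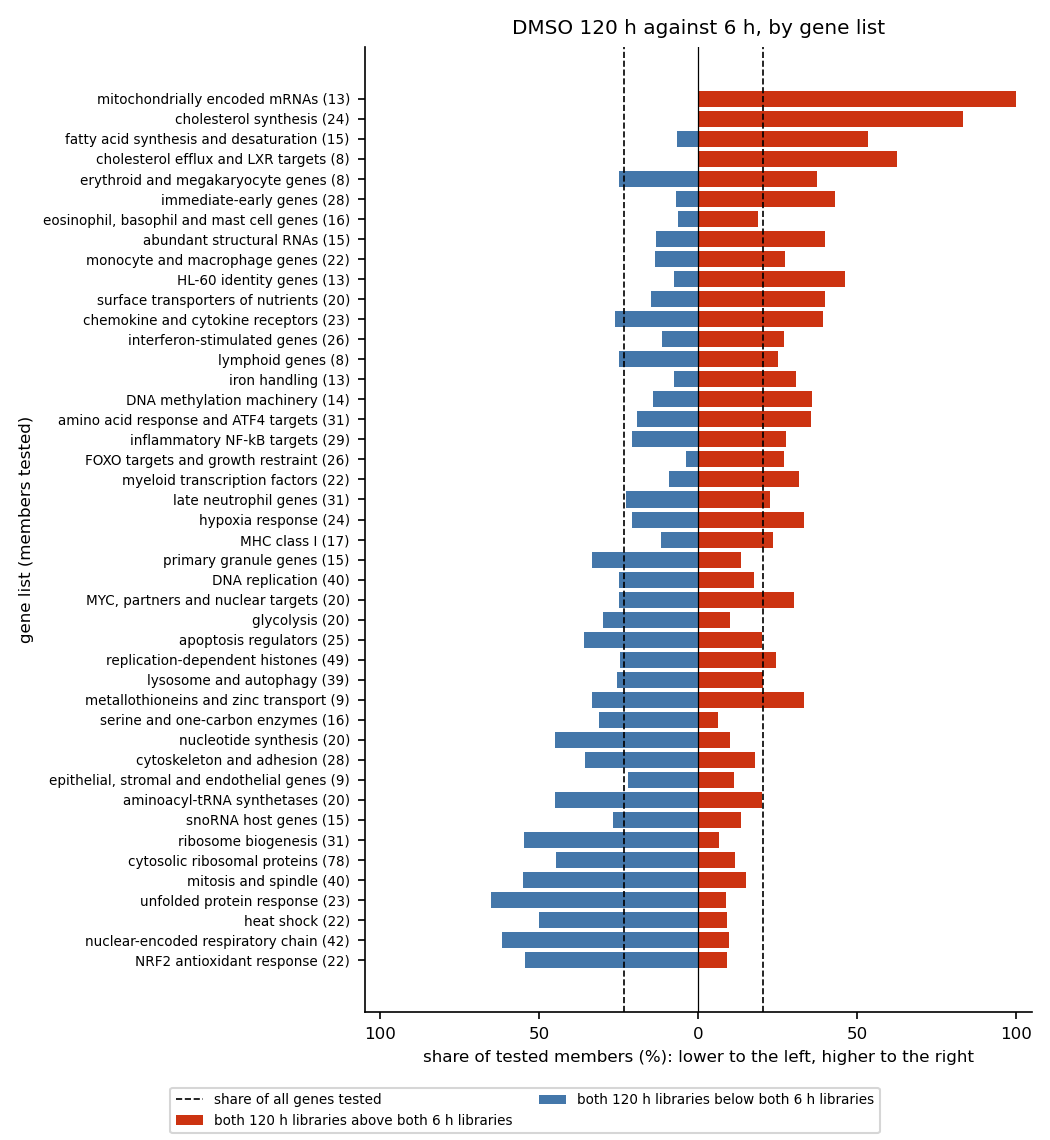
Share of tested members of gene lists with at least 8 tested members for which both DMSO 120 h libraries lay above (right, red) or below (left, blue) both DMSO 6 h libraries, in percent; numbers in brackets are tested members and dashed lines the share of all genes tested, 20.4% higher and 23.3% lower. Lists are ordered by their median log2 fold change, and the mitochondrially encoded mRNAs (13 of 13) and cholesterol synthesis genes (20 of 24) stand at the top.

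The cholesterol synthesis genes were higher at 120 h than at 6 h in 20 of 24 tested members and lower in 0, against 20.4% and 23.3% of all genes tested. Their median log2 fold change was 0.54, against -0.01 over all genes, and 12 of the 24 had an unadjusted p under 0.05, all higher. In 19 of 24 both 120 h libraries lay above all 4 libraries of 6 h, the decitabine ones included, against 10.3% of all genes. The DMSO 72 h library lay above both 6 h libraries for 21 of 24, against 32.4% of all genes, so the group stood above its 6 h level there too. Of the members under the filter, IDI2 was at 0 and 1.38 at 6 h and 0 and 3.22 at 120 h.

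At the head of the pathway, HMGCS1, which makes HMG-CoA, was at 1577 and 1523 at 6 h, 2471 at 72 h and 2581 and 3099 at 120 h. The groups did not overlap, and the log2 fold change was 0.87 (SE 0.15, limma adjusted p = 0.466). MVK, MVD and PMVK, the enzymes that carry mevalonate onward, were the members of this stretch whose times overlapped. MVD was at 82 and 155 at 6 h and 236 and 64.9 at 120 h. Below them, the squalene steps were higher without overlap: FDFT1, squalene synthase, was at 1709 and 1733 at 6 h and 2101 and 3177 at 120 h, and SQLE, squalene epoxidase, at 1225 and 1234 and then 1679 and 1909. The log2 fold change was 0.59 (SE 0.23) for FDFT1 and 0.54 (SE 0.14) for SQLE.

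The enzymes that turn lanosterol into cholesterol followed the same order of times. CYP51A1, the lanosterol demethylase, was at 2307 and 2342 at 6 h, 4005 at 72 h and 3514 and 4158 at 120 h. Its log2 fold change was 0.72 (SE 0.18, limma adjusted p = 0.753). DHCR7, which makes cholesterol from its last precursor, was at 229 and 182 at 6 h and 380 and 385 at 120 h. Its log2 fold change was 0.90 (SE 0.30). ACAT2, which supplies acetoacetyl-CoA at the start of the pathway, was at 1908 and 1964 at 6 h and 2216 and 2835 at 120 h. FDPS, IDI1 and EBP differed less, with log2 fold changes of 0.30, 0.26 and 0.23, each without overlap between the times. STARD4, a sterol carrier, was at 307 and 258 at 6 h and 292 and 266 at 120 h, and its times overlapped.

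The control genes of the pathway stood higher as well. INSIG1, the sterol-responsive anchor of SREBP in the endoplasmic reticulum, was at 971 and 1071 at 6 h, 1881 at 72 h and 1682 and 2182 at 120 h, a log2 fold change of 0.91 (SE 0.17, limma adjusted p = 0.488). SREBF2, which encodes the factor that acts mainly on sterol genes, was at 625 and 725 at 6 h and 955 and 1068 at 120 h, a log2 fold change of 0.58 (SE 0.25). An antisense gene, SREBF2-AS1, overlaps its start, and whether counting used strand is not stated. Both genes lay above every 6 h library of either treatment at 120 h.

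**Figure D2:**
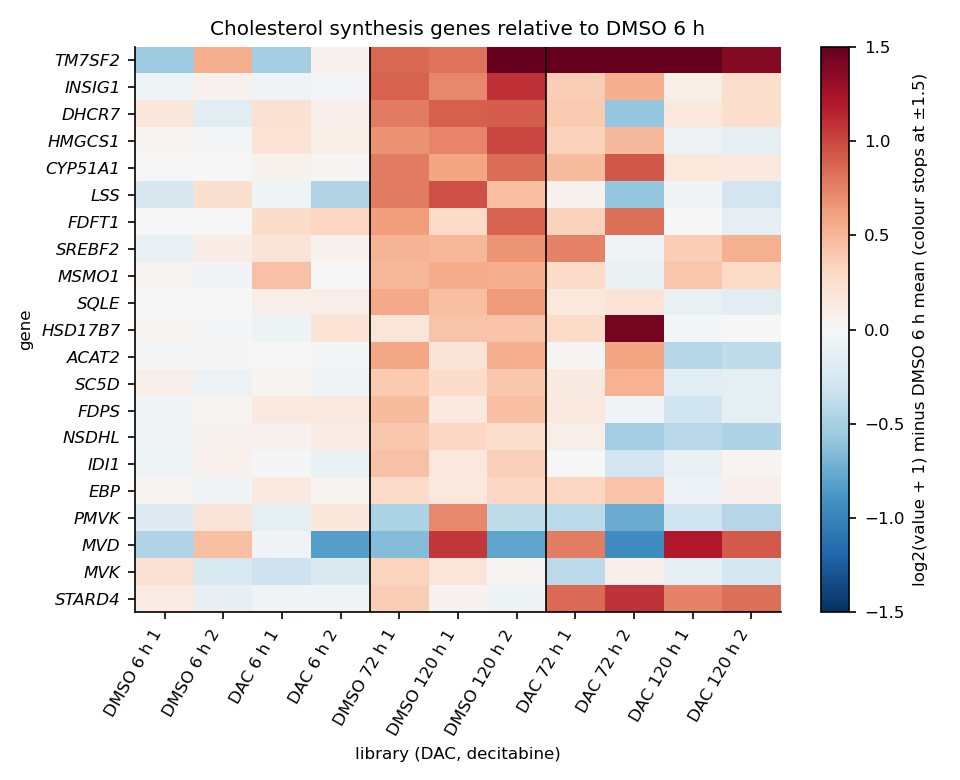
Colour shows log2(value + 1) of 21 of the 24 tested cholesterol synthesis genes (rows) in each of 11 libraries (columns; DAC, decitabine) minus the mean of the 2 DMSO 6 h libraries, with vertical lines between the 6 h libraries, the later DMSO libraries and the later decitabine libraries. The 3 later DMSO libraries are mostly red, while the 2 decitabine 120 h libraries are near white for most rows.

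The list's level per library shows the pattern without any fit. Relative to the mean of the DMSO 6 h libraries, the median of the 24 genes was -0.016 and 0.016 on the log2 scale in the DMSO 6 h libraries and 0.016 and 0.059 in the decitabine 6 h libraries. It was 0.502 in the DMSO 72 h library and 0.509 and 0.538 in the DMSO 120 h libraries. In decitabine it was 0.291 and 0.461 at 72 h and -0.029 and 0.002 at 120 h. The later DMSO libraries were thus the 3 highest of the 11, and at 120 h the decitabine libraries were at the 6 h level. Over scalings, pseudocounts, filters and GC or length corrections the list's median log2 fold change in DMSO ranged from 0.48 to 0.59, with 20 genes higher and 0 lower in each.

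Promoters of 4 of these lipid genes are shown because they hold the short sterol element to which SREBP binds, here searched as CACNCCAC, and the 3 other than SCD also show, within the bases printed, the CCAAT box bound by its partner NF-Y. Sequences are from RefSeq on GRCh38.p14, each 101 bases upstream of the RefSeq gene start and written 5′ to 3′ on the gene's strand. Capitals mark either motif on either strand, so that CCAAT on the other strand reads ATTGG. The windows are chr22:41832927-41833027 for SREBF2, chr7:155297628-155297728 for INSIG1, chr10:100347073-100347173 for SCD and chrX:38801358-38801458 for MID1IP1, all on the plus strand.
SREBF2: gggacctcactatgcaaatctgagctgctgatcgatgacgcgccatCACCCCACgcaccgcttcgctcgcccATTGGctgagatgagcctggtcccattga
INSIG1: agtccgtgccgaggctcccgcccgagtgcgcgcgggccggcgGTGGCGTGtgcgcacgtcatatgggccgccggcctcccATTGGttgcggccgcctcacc
SCD: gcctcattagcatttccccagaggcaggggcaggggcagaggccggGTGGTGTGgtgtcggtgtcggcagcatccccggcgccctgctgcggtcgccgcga
MID1IP1: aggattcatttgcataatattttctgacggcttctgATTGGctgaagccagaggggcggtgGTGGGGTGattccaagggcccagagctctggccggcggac

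A promoter entry was matched for 18 of the 24 cholesterol synthesis genes and 14 of the 15 fatty acid genes. In the 250 bases upstream, CACNCCAC was found on either strand in 2 of the 18 (11.1%), INSIG1 and SREBF2, against 4.72% of all 27305 promoters. It was found in 2 of the 14 fatty acid genes (14.3%), SCD and MID1IP1. Among genes of cholesterol export and liver X receptor targets it was found in 1 of 7 (14.3%), ABCA1, whose promoter is not shown. The longer form TCACNCCAC was found in 1 of the 18 (5.56%), SREBF2, against 0.875% of all. CCAAT was found in 15 of the 18 (83.3%), against 33% of all promoters and 35.7% of those of tested genes, and in 7 of the 14 fatty acid genes (50%). CCAAT and CACNCCAC were added after values were seen, and a match describes these letters only. GENCODE places the starts of SCD and MID1IP1 upstream of those of RefSeq, within the windows shown.

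Genes of fatty acid synthesis and desaturation were less uniform: 8 of 15 tested members were higher and 1 lower, against 20.4% and 23.3% of all genes tested. Their median log2 fold change was 0.40. SCD, the desaturase that makes oleate, was at 2322 and 2258 at 6 h, 4295 at 72 h and 4451 and 5057 at 120 h. Its 120 h libraries lay far outside the 6 h range, and its log2 fold change of 1.05 (SE 0.15, limma adjusted p = 0.366) had the second smallest p among genes higher at 120 h. With limma's sample weights SCD was called (adjusted p = 0.0235). ACACA, acetyl-CoA carboxylase, was at 1066 and 1011 at 6 h and 1488 and 1618 at 120 h, and ACSL3, which activates long-chain fatty acids, at 1362 and 1580 and then 1948 and 2586. Their log2 fold changes were 0.58 (SE 0.14) and 0.61 (SE 0.22). SREBF1, the SREBP gene of fatty acid synthesis, was low, at 15.5 and 48.9 at 6 h, 171 at 72 h and 107 and 147 at 120 h, a log2 fold change of 2.14 (SE 0.50).

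FASN, fatty acid synthase, was the member that was lower, at 2600 and 1650 at 6 h, 830 at 72 h and 1307 and 683 at 120 h. Its decitabine 6 h libraries were at 365 and 340, below all of the DMSO libraries, and its decitabine 120 h libraries were at 2390 and 311. Its log2 fold change of -1.13 had an SE of 0.80. MID1IP1, an activator of acetyl-CoA carboxylase, was at 747 and 734 at 6 h and 1019 and 940 at 120 h, a log2 fold change of 0.40 (SE 0.14). The list's most abundant member, the elongase ELOVL5, was at 3605 and 3391 at 6 h and 3735 and 3971 at 120 h, and ACLY, which makes cytosolic acetyl-CoA, at 2420 and 2326 and then 2966 and 3944. FADS1, a desaturase of polyunsaturated fatty acids, was at 6.54 and 12.8 at 6 h and 25.7 and 39.6 at 120 h.

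Among the targets of the liver X receptors and genes of cholesterol export, 5 of 8 tested members were higher and 0 lower. Over all genes tested these shares were 20.4% and 23.3%. The list's median log2 fold change was 0.38. ABCA1, which exports cholesterol to apolipoprotein A-I, was at 10.9 and 9.06 at 6 h, 89.1 at 72 h and 71.4 and 70.4 at 120 h. Its log2 fold change of 2.72 (SE 0.34, limma adjusted p = 0.366) had the smallest p of all genes, and with sample weights it was called (adjusted p = 0.0204). MYLIP, a ubiquitin ligase under the liver X receptors, was at 157 and 203 at 6 h, 346 at 72 h and 313 and 262 at 120 h, a log2 fold change of 0.68 (SE 0.29). LPCAT3, a phospholipid-remodelling enzyme, was at 194 and 154 and then 258 and 207. NR1H2, which encodes a liver X receptor, was at 273 and 291 and then 332 and 304. The exporter ABCG1 stayed under the filter, at 0 in both 6 h libraries and 2.08 and 3.14 at 120 h.

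**Figure D3:**
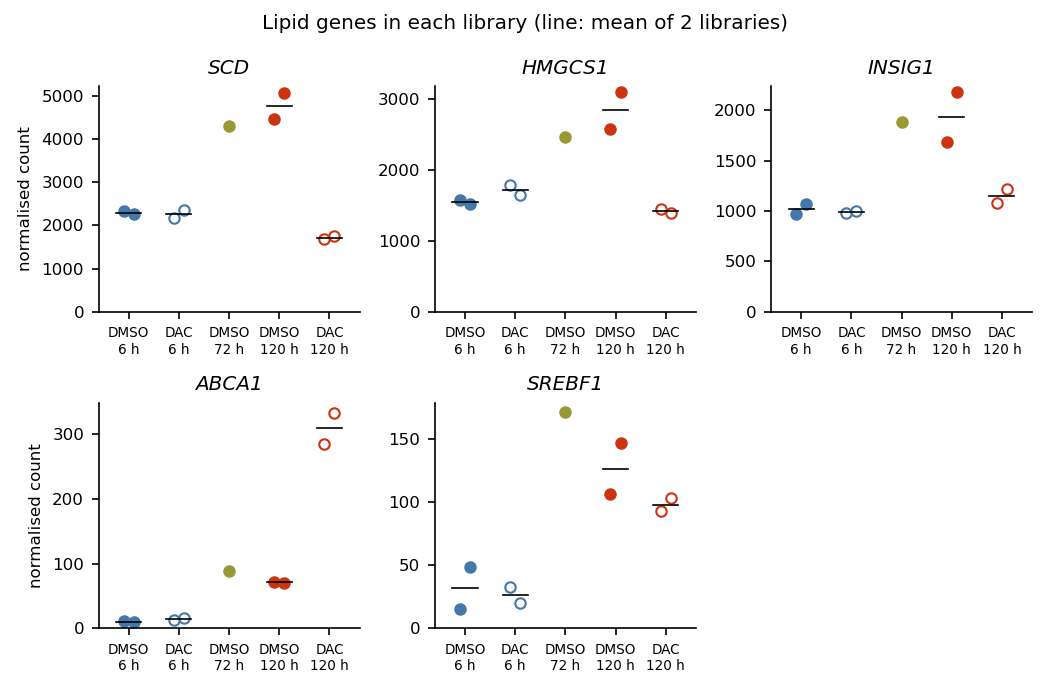
Normalised counts (linear axes from 0) of 5 lipid genes in each library of DMSO at 6, 72 and 120 h (filled) and of decitabine (DAC) at 6 and 120 h (open), with lines at the mean of 2 libraries. In each panel the DMSO 120 h points lie above all 6 h points, and for SCD the DAC 120 h points, at 1679 and 1760, lie below them.

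The mRNAs encoded by mitochondrial DNA had the largest list median. All 13 were higher at 120 h without overlap, against 20.4% of all genes tested, with a median log2 fold change of 1.28 and a range of 0.35 to 2.36. MT-ND1, a subunit of complex I, was at 702 and 648 at 6 h and 3068 and 3892 at 120 h, MT-ND5 at 791 and 767 and then 3237 and 3497, and MT-CO1, the catalytic subunit of cytochrome oxidase, at 23461 and 24019 and then 43023 and 39454. Their log2 fold changes were 2.36 (SE 0.72), 2.11 (SE 0.50) and 0.80 (SE 0.31). The oxidase subunits MT-CO2 and MT-CO3 were at 6448 and 6078 and at 10679 and 9707 at 6 h, and at 12759 and 10467 and at 23518 and 17764 at 120 h. A fit of the 4 DMSO libraries alone, which takes its spread from these libraries, called 8 genes (0.0569% of 14051), all higher. Among them were MT-ND1, MT-ND2, MT-ND4, MT-ND5 and MT-ATP6. The others were FP671120.7, the pseudogene NPM1P27 and AC010970.1, which coincides with an 18S rRNA pseudogene. Nuclear copies of mitochondrial genes can share their reads.

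The DMSO 72 h library did not share this level. It lay above both 6 h libraries for 2 of the 13 and below for 10, against 32.4% and 38.4% of all genes. The median log2 difference was -0.38. MT-ND1 was at 463 there. Ribosomal RNA moved with the mitochondrial mRNAs across libraries. FP671120.7, an RNA from chromosome 21, 8210384 to 8211306 (GRCh38), lies within the RefSeq 18S ribosomal RNA gene RNA18SN2 at 8209631 to 8211499. It held 0.794% and 0.493% of the DMSO 6 h libraries, 0.0943% of the 72 h library and 8.08% and 10.9% of the 120 h libraries. The 13 mitochondrial mRNAs held 0.379% and 0.382% at 6 h, 0.386% at 72 h and 0.786% and 0.682% at 120 h. In decitabine the 120 h libraries and 1 of the 2 at 72 h were also high for both, with FP671120.7 at 7.31%, 3.89% and 5.25%, and the other 72 h library was at 0.106%. In the libraries with little FP671120.7 the most abundant RNA was EEF1A1, a translation factor, at 1.95% and 1.98% in DMSO at 6 h, and MPO, LYZ, NPM1, PTMA, AL162581.1 and RN7SL2 also passed 1% of at least 1 library. The same 5 of 11 libraries were therefore high for both RNAs, whatever the treatment. The mitochondrial ribosomal RNA MT-RNR2 was at 1974 and 1150 at 6 h, 782 at 72 h and 18589 and 52607 at 120 h. The libraries had been depleted of ribosomal RNA before sequencing, and the part that depletion had in these levels was not tested.

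**Figure D4:**
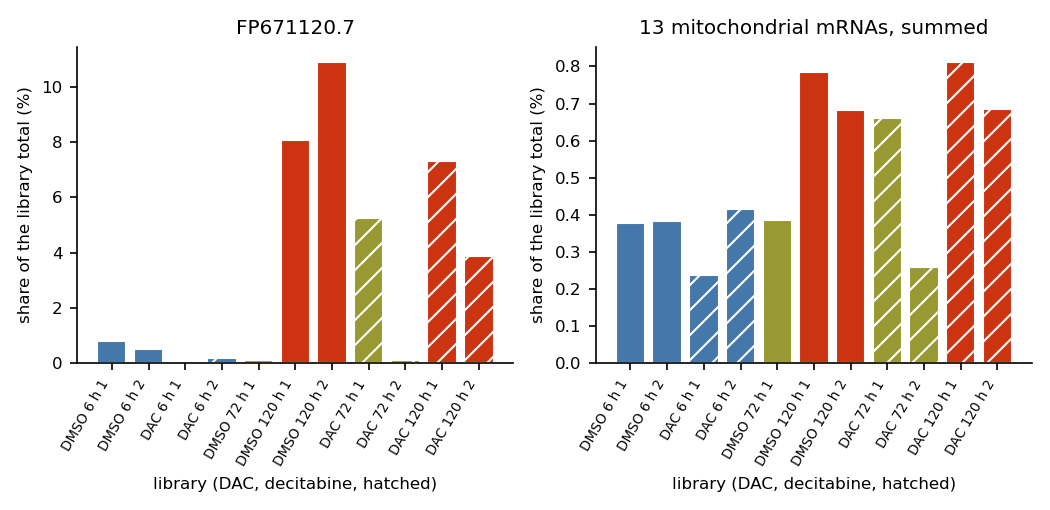
Share of the library total, in percent, taken by FP671120.7 (left) and by the 13 mitochondrial mRNAs summed (right) in each of 11 libraries, coloured by time (blue 6 h, olive 72 h, red 120 h), with decitabine (DAC) hatched. The 2 DMSO 120 h libraries, both DAC 120 h libraries and DAC 72 h replicate 1 are high in both panels, and the DMSO 72 h library is not.

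The respiratory chain subunits encoded in the nucleus lay on the other side of their 6 h level. Of 42 tested, 26 were lower (61.9%) and 4 higher (9.52%), against 23.3% and 20.4% of all genes tested. Their median log2 fold change was -0.18. The 72 h library was below both 6 h libraries for 27, against 38.4% of all genes. UQCRB, a subunit of complex III, was at 7822 and 8013 at 6 h, 5922 at 72 h and 5741 and 5744 at 120 h, a log2 fold change of -0.46 (SE 0.21). ATP5F1A, of ATP synthase, was at 11780 and 12061 at 6 h and 8204 and 9747 at 120 h, a log2 fold change of -0.41 (SE 0.40). ATP5PB, of the same enzyme, was at 5166 and 5189 and then 4476 and 5065.

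Of 22 antioxidant genes under NRF2, the factor that answers oxidative stress, 12 were lower (54.5%) and 2 higher (9.09%). Over all genes tested these shares were 23.3% and 20.4%. The list's median log2 fold change was -0.33. GCLM, the regulatory subunit of glutathione synthesis, was at 679 and 723 at 6 h, 326 at 72 h and 438 and 363 at 120 h, a log2 fold change of -0.81 (SE 0.23). TXNRD1, thioredoxin reductase, was at 5798 and 5615 at 6 h and 4205 and 4671 at 120 h, and PGD, of the pentose phosphate pathway, at 7213 and 6935 and then 5482 and 5439. Their log2 fold changes were -0.36 (SE 0.21) and -0.37 (SE 0.23). FTL, ferritin light chain, was at 9938 and 10280 and then 10437 and 10118, so its times overlapped, and the peroxidase PRDX1 was at 5826 and 6527 and then 4782 and 4965. Of 23 genes of the unfolded protein response, 15 were lower (65.2%) and 2 higher (8.7%), with a median of -0.16. SYVN1, the ligase of endoplasmic reticulum-associated degradation, was at 532 and 428 at 6 h, 266 at 72 h and 274 and 226 at 120 h, a log2 fold change of -0.94 (SE 0.19, limma adjusted p = 0.531), and PDIA6, a disulphide isomerase, was at 8127 and 8030 and then 6521 and 6854. The most abundant members were the chaperones CANX, at 32782 and 31083 at 6 h and 26852 and 32936 at 120 h, CALR, at 22865 and 22312 and then 20845 and 23627, and HSP90B1, at 16932 and 17272 and then 15615 and 14767. Of these 3, HSP90B1 alone did not overlap between the times. HSPA5, the sensor chaperone of the response, was at 3817 and 3617 at 6 h and 4548 and 2988 at 120 h, so its times overlapped.

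Of 22 heat shock genes, 11 were lower (50%) and 2 higher (9.09%), against 23.3% and 20.4% of all genes tested, with a median of -0.18. The 72 h library lay below both 6 h libraries for 18, against 38.4% of all genes. HSPA8, the constitutive HSP70 and the list's most abundant member, was at 47592 and 46014 at 6 h, 29959 at 72 h and 32120 and 35694 at 120 h, a log2 fold change of -0.47 (SE 0.24). HSP90AB1 was at 36455 and 34474 at 6 h and 37819 and 33665 at 120 h, so its times overlapped, and HSP90AA1 was at 32905 and 32359 and then 26858 and 23900. Genes of glycolysis (2 of 20 higher, 6 lower), of the hypoxia response (8 of 24 higher, 5 lower) and of the amino acid response under ATF4 (11 of 31 higher, 6 lower) had medians of -0.02, 0.04 and 0.06. Their shares were nearer those of all genes, at 10%, 33.3% and 35.5% higher and 30%, 20.8% and 19.4% lower.

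Growth genes lay slightly lower. Of 31 ribosome biogenesis genes, 17 were lower (54.8%) and 2 higher (6.45%) with a median of -0.12. For 78 cytosolic ribosomal proteins, 35 were lower (44.9%) and 9 higher (11.5%) with a median of -0.13. Over all genes tested 23.3% were lower and 20.4% higher. GNL3, nucleostemin, was at 7908 and 7651 at 6 h, 7583 at 72 h and 4676 and 5284 at 120 h, and RPSA at 53879 and 54936 and then 40136 and 38024. RPS3A was at 57691 and 62008 and then 42218 and 53040, and RPL5 at 49486 and 45946 and then 78924 and 46944. Of the nucleolar factors, DDX21 was at 12970 and 12558 and then 12575 and 11853, NOLC1 at 8798 and 7986 and then 10328 and 9740, and WDR43 at 6989 and 7325 and then 6474 and 6512, so these 3 did not share a direction. Reads of ribosomal protein genes can be shared with their many processed pseudogenes. Of 40 mitosis and spindle genes, 22 were lower (55%) and 6 higher (15%), with a median of -0.13. CDK1, the kinase that drives entry into mitosis, was at 4500 and 4179 at 6 h, 3188 at 72 h and 3099 and 2674 at 120 h, a log2 fold change of -0.59 (SE 0.15, limma adjusted p = 0.753). MKI67, the proliferation marker, went the other way, at 5823 and 5510 at 6 h, 4554 at 72 h and 8627 and 7524 at 120 h. TOP2A, the topoisomerase of dividing cells, was at 14422 and 13746 and then 13534 and 12508, and CENPF, a kinetochore protein, at 9175 and 10044 and then 9342 and 9862. The 40 DNA replication genes were near the background, with 7 higher, 10 lower and a median of 0.01. In bulk RNA, fewer cells in a phase of the cycle and less RNA per cell cannot be told apart.

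Immediate-early genes, which answer serum and growth factors within minutes, were higher in 12 of 28 and lower in 2, with a median of 0.29. Of all genes tested 20.4% were higher and 23.3% lower. The list was uneven, with median levels relative to DMSO 6 h of 0.389 and 0.129 in the 120 h libraries. At 72 h this level was 0.052, and in the decitabine 6 h libraries it was 0.1 and 0.181. Over scalings, pseudocounts, filters and corrections 10 to 15 members were higher. JUNB was at 181 and 177 at 6 h and 266 and 242 at 120 h, a log2 fold change of 0.50 (SE 0.51). IER2 was at 349 and 332 and then 477 and 367. The most abundant members, SRF and FOSL2, were at 883 and 815 and at 735 and 599 at 6 h, and at 911 and 854 and at 728 and 634 at 120 h, so their times overlapped.

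Late neutrophil genes, which mark the neutrophil-like cells, were close to the background in the vehicle. Of 31 late neutrophil genes 7 were higher and 7 lower, each 22.6%, with a median log2 fold change of 0.04. Among 15 primary granule genes 2 were higher (13.3%) and 5 lower (33.3%) with a median of 0.01. Over all genes tested 20.4% were higher and 23.3% lower. S100A8, a calcium-binding protein abundant in mature neutrophils, was at 3727 and 3992 at 6 h and 2321 and 2355 at 120 h, a log2 fold change of -0.72 (SE 0.26, limma adjusted p = 0.904). CYBB, of the phagocyte oxidase, was at 5766 and 5447 and then 4893 and 5042, and S100A9, the partner of S100A8, at 5407 and 5054 and then 4257 and 3805. PRG2, the eosinophil major basic protein, was at 21239 and 21668 at 6 h, 16506 at 72 h and 13438 and 14471 at 120 h, a log2 fold change of -0.62 (SE 0.17, limma adjusted p = 0.824). Of the 13 tested HL-60 identity genes, 6 were higher and 1 lower, against 20.4% and 23.3% of all genes tested. In 4 of the 13 both 120 h libraries lay above all 4 libraries of 6 h, against 10.3% of all genes. The DMSO 72 h library lay above both 6 h libraries for 5 and below both for 6, against 32.4% and 38.4% of all genes. The median log2 difference was -0.131. ELANE, neutrophil elastase, was at 583 and 517 at 6 h and 771 and 909 at 120 h, but at 891 and 847 in the decitabine 6 h libraries, so its DMSO 120 h values overlapped the decitabine 6 h values. MYC was at 14312 and 13615 at 6 h and 14185 and 13100 at 120 h. CTSG, cathepsin G, was the member that was lower, at 1435 and 1373 and then 1043 and 1226. The others that were higher were AZU1, at 264 and 239 and then 351 and 346, SPI1, at 448 and 502 and then 617 and 594, CEBPA, at 1559 and 1565 and then 1962 and 1741, FUT4, at 1568 and 1597 and then 1823 and 1702, and MYB, at 8799 and 9019 and then 9322 and 9579. MPO, PRTN3, CD33, ANPEP and CDKN2A overlapped between the times, and CD34 and HLA-DRA were among those under the filter.

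Genes ranked by unadjusted p bring in some outside the lists. The ranking was set after none was called. It took only genes with at least 50 in both libraries of the higher group and no overlap between the times. Genes with clone-based names, such as AC010970.1, were left out, so genes with smaller p can be missing from it. Besides ABCA1, SCD, HMGCS1, INSIG1 and MT-ATP8, the 12 top-ranked genes higher at 120 h included NFIC, JUP, GATAD2B, ATP10D, RPL23AP74 and FKBP10. NFIC, a nuclear factor I transcription factor, was at 113 and 88.4 at 6 h, 123 at 72 h and 305 and 229 at 120 h, and JUP, junction plakoglobin, at 44.2 and 44.3, then 130, then 101 and 95.6. For GATAD2B, ATP10D and FKBP10 the DMSO 120 h values overlapped those of the decitabine 6 h libraries. The 12 top-ranked genes among those lower were WDR45, NOMO3, SKIL, SYVN1, PXMP4, IER3IP1, SLC16A6, MED29, RHOH, UNC13B, SELENOK and NGDN. SKIL, a repressor of TGF-beta signalling, was at 1019 and 1050 at 6 h, 466 at 72 h and 501 and 550 at 120 h, a log2 fold change of -0.98 (SE 0.18, limma adjusted p = 0.466). SYVN1 and SELENOK both act in protein degradation at the endoplasmic reticulum.

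WDR45, an autophagy gene, was at 311 and 162 in DMSO at 6 h and at 22.4 and 39.5 at 120 h, a log2 fold change of -2.87 (SE 0.39, limma adjusted p = 0.366), but at 33.9 and 34.2 in decitabine at 6 h and at 168 and 144 in decitabine at 120 h. NOMO3, which has near-identical copies that can share its reads, was likewise at 1203 and 902 in DMSO at 6 h and at 525 and 512 in decitabine at 6 h. For these genes the low DMSO level at 120 h was close to that of decitabine-treated cells at 6 h.

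The change with time was compared with that in decitabine, from libraries that are not shared, by the difference of both changes in the same fit. In decitabine 1926 genes rose (11.9%) and 1294 fell (8.01%), and the difference was called for 689 genes (4.27%) with the decitabine change higher and 264 (1.63%) with it lower. The higher ones were 72.3% of these, against 58.4% after quantile normalisation, 59.9% with TMM factors, 61% after GC correction and 62.8% after length correction. Without both decitabine 72 h libraries the counts were 1590 and 1416. Of the 24 cholesterol synthesis genes the difference was called for 1, HMGCS1, and the median difference was -0.55. HMGCS1 was at 1789 and 1650 in decitabine at 6 h and 1456 and 1396 at 120 h, a difference of -1.14 (SE 0.22, limma adjusted p = 0.0228). For SCD, at 2167 and 2363 and then 1679 and 1760 in decitabine, the difference was -1.45 (SE 0.21, limma adjusted p = 0.00791), and for ACACA, at 1124 and 1134 and then 503 and 520, it was -1.72 (SE 0.20, limma adjusted p = 0.00328). For these 3 genes the 120 h libraries lay above those of 6 h in DMSO and below them in decitabine. The decitabine change itself was not called for HMGCS1 (limma adjusted p = 0.257) or SCD (limma adjusted p = 0.0942). HMGCS1 and SCD were among the genes ranked by p in DMSO, and ACACA was named after its values were seen. The same DMSO libraries enter the difference, so it is not independent of that choice. The difference had the opposite sign for ME1, malic enzyme, named after its values were seen. It was at 19 and 26 and then 89.6 and 72.7 in decitabine and at 23.1 and 31.6 and then 27.9 and 20.9 in DMSO, a difference of 1.97 (SE 0.46, limma adjusted p = 0.0434).

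The exporter gene did not share that pattern. ABCA1 was at 13 and 16.4 and then 285 and 332, a difference of 1.59 (SE 0.48, limma adjusted p = 0.0952), so its level was higher at 120 h in both. For the mitochondrial mRNAs the median difference was 0.09, with 0 of 13 called by limma. For late neutrophil genes the difference was called for 19 of 31, all higher in decitabine, with a median of 2.35. S100A8 was at 3922 and 3122 in decitabine at 6 h and at 14689 and 14804 at 120 h. MYC was at 14182 and 15597 and then 3444 and 3033, a difference of -2.17 (SE 0.26, limma adjusted p = 0.00382).

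**Figure D5:**
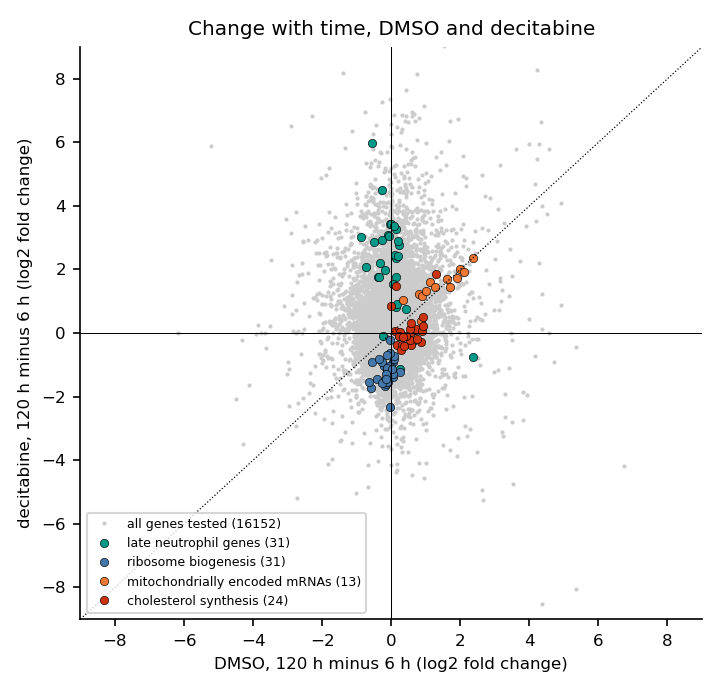
Log2 fold change from 6 h to 120 h in DMSO (x axis) and in decitabine (y axis) for 16152 genes (grey), with 4 gene lists in colour and a dotted line of equal change; 2 genes lie outside the axes. Of the 24 cholesterol synthesis genes (red), 23 lie right of 0 on the x axis, most of them near 0 on the y axis, mitochondrial mRNAs (orange) lie near the line, and late neutrophil genes (green) and ribosome biogenesis genes (blue) spread along the y axis.

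Base composition moved with the comparison. Across the 15879 genes with annotated transcripts, Spearman's rho of the DMSO log2 fold change with transcript GC content was 0.18, a description across genes that share libraries. With genes cut into 5 equal groups by GC, 12.8% were higher and 34.3% lower in the lowest group, and these shares were 30.1% and 13.4% in the highest. The cholesterol synthesis genes had a median GC of 50.3%, between the groups of genes with median GC of 47.3% and 53%, whose median log2 fold changes were -0.002 and 0.03. Under a GC correction 20 of the 24 were higher and 0 lower, with a median of 0.53. The lists with small negative medians stayed negative under it, at -0.30 for NRF2 genes, -0.16 for heat shock, -0.14 for the nuclear respiratory chain, -0.12 for the unfolded protein response and -0.09 for mitosis.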

How the data were processed

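HL-60 RNA was sequenced at 6, 72 and 120 h in decitabine or DMSO; the table gives 11 of 12 libraries values. The deposited values are a normalised signal, never negative, that looks like estimated counts divided by a size factor per library. Per the submitters' processing notes, the tools were limma, DESeq2, featureCounts, STAR and Salmon 1.2.1 on hg38; their roles, order and annotation are not stated. In the low range 59.4% to 65.5% of a library's values were whole multiples, within 0.01, of its own step. Whole reads were therefore not recovered, no count model was run, and depths are estimates. Counting error alone limits genes under about 10.

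A gene was kept where 2 or more libraries reached 10. Values were transformed to log2(value + 1), so fold changes of low genes are understated. A mean for each of 6 groups was fitted to 11 libraries with limma 3.58.1 (lmFit, eBayes with a trend) in R 4.3.3, with 5 residual degrees of freedom (8.42 with those borrowed across genes). DMSO at 72 h has no SD. Two-sided p-values were adjusted by Benjamini-Hochberg over 16152 genes and called under 0.05. Annotation came from GENCODE 29, promoters from RefSeq. The 47 lists (1116 genes), their members and the comparison were chosen with earlier results of these data known. The rule for named genes took up to 3 most abundant members of a list (given here for the lists described in full), the identity genes and RNAs over 1% of a library. The rule's other parts needed called genes and were empty. Instead, 12 genes each way were ranked by unadjusted p, among genes at 50 or more in both libraries of the higher group, without overlap or clone-based names. Further list members were named after their values were seen. The fitting script was tested on simulated data. Some genes are not reported here.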

Additional observations from a re-analysis of the deposited data

Results flagged for a closer look

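A set of 64 genes, which does not hold every gene named above, was checked for changes from 6 h to 120 h that differed between decitabine and DMSO. For 15 of them limma's test of the difference itself gave an adjusted p under 0.05 over all genes tested. The values are the decitabine log2 change minus the DMSO log2 change. Among lipid genes the difference was -1.136 for HMGCS1, -1.447 for SCD and -1.721 for ACACA. The lipid gene ME1, outside the set, was also called, with the opposite sign at 1.97. Among myeloid genes and the growth regulator MYC it was 1.224 for LYZ, the lysozyme gene, 2.797 for S100A8, 2.902 for PRG2 and -2.167 for MYC. It was 1.751 for PGD of the pentose phosphate pathway. Among genes ranked by p in DMSO it was 5.027 for WDR45, 2.014 for NOMO3, 1.387 for SKIL, 1.685 for PXMP4, 1.134 for MED29, 1.997 for RHOH and -3.178 for the pseudogene RPL23AP74. LYZ held 0.916% and 0.933% of the DMSO 6 h libraries, 0.763% and 0.807% of the DMSO 120 h libraries and 1.99% and 2.1% of the decitabine 120 h libraries. The ranked genes, HMGCS1 and SCD included, had been picked for a difference between the DMSO libraries that enter this test too. Their differences are therefore not independent of that choice.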

How the results depend on the processing

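The DMSO comparison called 0 genes higher and 0 lower at most of 26 alternatives. Without a filter, or without limma's trend, 1 gene was called higher. Sample weights called 2 higher and 1 lower, and the fits of only the 5 or only the 4 DMSO libraries called 8 higher and 0 lower each. Leaving out a library gave 0 to 9 higher and 0 to 3 lower. The most, 9 and 3, came on leaving out 1 of the 2 decitabine 72 h libraries (adjusted p of 0.0488 to 0.0493), SCD, ABCA1, SKIL and MT-ND1 among them. Without both, 0 were called and the smallest adjusted p was 0.0503, an alternative chosen after seeing the data.

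The difference between the treatments' changes was called for 689 genes higher and 264 lower. It gave 457 and 132 without a filter, 1721 and 1300 with sample weights, and 1590 and 1416 without both decitabine 72 h libraries. Genes lower were 493 after quantile normalisation, 433 after GC correction and 161 without a trend. Leaving out a library gave 186 to 1600 higher and 39 to 1406 lower.

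Of 1664 values of the set of 64 genes, 6 changed sign, all for MYC and MPO, which differed little. MYC was 0.043 after quantile normalisation, 0.013 with equal totals, and -0.092 to 0.023 with a library left out. MPO was -0.071 after quantile normalisation and -0.027 to 0.512 with a library left out. The causes were not tested. No value of the others in this set changed sign. Further genes named in the text, MVD, CANX and CALR among them, were outside the set. The printed values of these genes give the other direction if DMSO 120 h replicate 1 is left out.

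With the replicate number as a block, 0 genes were called in DMSO (smallest adjusted p 0.542), and the difference was called for 585 higher and 178 lower. The deviations of the DMSO duplicates of 6 h and 120 h correlated at 0.021 across genes, so no shared deviation was seen. With 1 deviation per time this cannot show whether wells with the same number were paired. Between other groups the correlation ranged from -0.078 to 0.124. No scaling moved the median of all genes by over 0.1 on the log2 scale. With 2 libraries a time, 1 outlying library can decide whether a gene's times overlap.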
